A study of Mus musculus with 9 samples.

Results

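Genes that drive mitosis and chromosome segregation were followed in dendritic cells (DCs) from mouse spleen with and without the transcription factor C/EBPβ. The set was a list of 59 gene symbols chosen by name, with earlier results of these data known. A gene was read through probes that carry its symbol alone, with the brightest probe taken where there were several. Of the 59 genes, 57 were measured among 22180 genes in all. Ccnb1 and Ncapg were not analysed here, the latter because its probe carries several symbols. Total RNA of sorted CD11c+ MHC class II+ cells was hybridised to 9 whole-transcript arrays. All mice were on a C57BL/6 background and are labelled naive. The 6 control samples have intact C/EBPβ, and the series' design names CD11c-Cre-eGFP animals as their source while the growth protocol also lists plain C57BL/6 mice. The 3 knockout samples come from CD11c-Cre-eGFP mice crossed to C/EBPβ flox/flox, so the deletion is driven by the CD11c promoter and affects any cell in which that promoter is active. The labels state no age and do not say whether samples were separate animals or pools. The p-values therefore speak only of variation among the 9 samples, part of which may be technical.

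Mitosis is started by cyclins A and B bound to the kinase Cdk1, and it is steered by Polo and Aurora kinases. Condensins compact the chromosomes, kinetochores couple them to spindle microtubules, and a checkpoint holds the anaphase-promoting complex in check until all chromosomes are attached. The transcripts of most of these proteins accumulate together late in the cell cycle, under the MuvB complex with B-Myb (Mybl2) and Foxm1, and are repressed in resting cells. Splenic DCs are largely non-dividing cells that are replenished from circulating precursors and by limited division in the spleen, and such transcripts are carried mainly by dividing cells. In bulk RNA, fewer dividing cells and less mitotic RNA per dividing cell cannot be told apart.

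The array medians lay between 5.49 and 5.56 on the log2 scale and the median difference over all genes was -0.01. Cebpb itself had log2 intensities of 6.77, 6.86, 7.15, 6.64, 6.66 and 6.76 in control replicates 1 to 6. In knockout replicates 1 to 3 it had 5.37, 5.60 and 5.42. All knockout samples lay below all controls, a log2 difference of -1.35 (SE 0.11, limma adjusted p = 0.00074; exact two-sided permutation p = 0.012, the smallest that 84 splits allow). Of 7 DC markers 0 passed by limma, and 0 were lower at an unadjusted p under 0.05. Their differences ran from -0.13 (Zbtb46) to 0.25 (Irf4, with knockout replicates at 10.29, 10.14 and 9.65 and controls of 9.63 to 9.92), with 4 means lower and 3 higher. In knockout replicate 1, 3 of the 7 lay below every control and 1 above. Itgax, which encodes CD11c, differed by 0.00 (95% confidence interval -0.16 to 0.15) and the MHC class II gene H2-Ab1 by 0.04 (-0.07 to 0.14).

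Mitotic genes were lower in the DCs lacking C/EBPβ. The knockout mean lay below the control mean in 56 of 57 genes, against 55.0% of all genes tested. The median difference was -0.50 on the log2 scale, or 70.5% of the control level. By limma with Benjamini-Hochberg adjustment over all 22180 genes, 7 of the 57 fell and 0 rose. That is 12.3%, where 0.491% of all genes fell, 0.415% rose and 0.906% passed in either direction. These were Espl1, Ube2c, Ccna2, Plk1, Cdc20, Aurkb and Cdca5. In 35 of the 57 every knockout value lay below every control value (61.4%), as in 4.88% of all genes, and in 0 every knockout value lay above, as in 2.52% of all genes. A further 45 of the 50 genes that did not pass had an unadjusted limma p under 0.05 with a lower knockout mean, which makes 52 of 57 where 8.82% of all genes did so. The genes were chosen with earlier results of these data known, so these shares describe the list and are not an independent test. Leaving out knockout replicate 1 turned the count of 7 into 34, while the share of all genes that fell went from 0.491% to 1.15%. Leaving out replicate 2 or 3 gave 2 or 4 (0.0316% and 0.216% of all genes). Leaving out control replicate 3 or 4 gave 4 (0.126% and 0.0812%), and control replicate 6 gave 3 (0.0992%). The count was also 23 with array weights (1.54% of all genes) and 14 after a further quantile normalization (0.546%). After leaving out genes below the median gene it was 27 of 56, where 2.99% of 11090 genes fell. Against controls 4 to 6 alone it was 1 (0.0225%). Against controls 1 to 3 alone it was 0 (0.00902%), with a limma unadjusted p under 0.05 in 35 of 57.

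**Figure D1:**
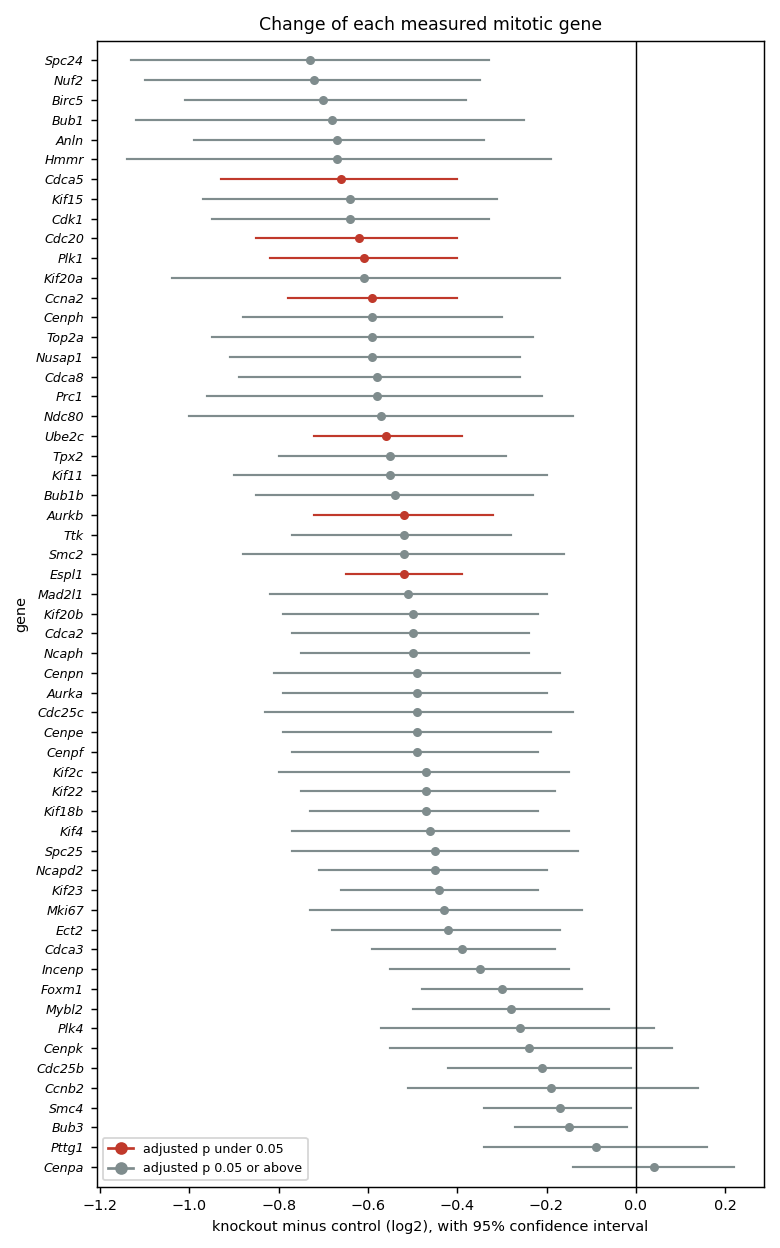
Difference between knockout and control (x axis, log2 units) for each of the 57 mitotic genes (y axis), as points with limma's 95% confidence intervals; red marks the 7 genes with adjusted p under 0.05. All points but that of Cenpa lie below 0, and Spc24 at -0.73 is the lowest.

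The 2 genes with the smallest p act at the step from metaphase to anaphase. Espl1 encodes separase, the protease that opens the cohesin rings holding sister chromatids. Its log2 intensity was 7.98, 7.88, 8.04, 8.03, 8.03 and 8.03 in control replicates 1 to 6, and 7.54, 7.49 and 7.42 in knockout replicates 1 to 3. The groups did not overlap and the knockouts lay close together. Espl1 fell by 0.52 (SE 0.06, limma adjusted p = 0.0048), to 69.9% of the control level. Ube2c is the ubiquitin-conjugating enzyme dedicated to the anaphase-promoting complex. It read 8.93, 8.96, 9.10, 9.19, 8.96 and 8.97 in the controls and 8.35, 8.55 and 8.49 in the knockouts. Here knockout replicate 1 was the lowest sample, which it was in 4 of the 57 genes. Ube2c fell by 0.56 (SE 0.07, limma adjusted p = 0.011). Espl1 and Ube2c were the 2 genes that passed whichever sample was left out, with adjusted p of at most 0.038 and 0.041.

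Cdc20, the activator that brings substrates to the anaphase-promoting complex, read 8.11, 8.24, 8.34, 8.41, 8.11 and 8.24 in the controls and 7.82, 7.64 and 7.39 in the knockouts. Without overlap, it fell by 0.62 (SE 0.10, limma adjusted p = 0.026). Cdc20 passed in 5 of the 9 fits without 1 sample, and was lost without control replicate 3, 4 or 6 or knockout replicate 2 (adjusted p up to 0.099). Cdca5 encodes sororin, which protects cohesion until anaphase. Its controls were tight, at 8.0, 7.98, 8.13, 8.10, 7.90 and 7.98, and its knockouts were spread over 7.73, 7.19 and 7.13. Knockout replicate 1 thus lay nearer to the controls than to the other knockouts. Cdca5 fell by 0.66 (SE 0.12, limma adjusted p = 0.036), and passed in 1 of the 9 fits without 1 sample, that without knockout replicate 1. Of the other 3 genes of this group, Cdca3, a factor of mitotic entry, differed by -0.39 (limma adjusted p = 0.081) with knockout values of 7.22, 7.46 and 7.32 below all controls. Cdca2, a chromatin-targeting subunit of a protein phosphatase, differed by -0.50 (limma adjusted p = 0.081). Pttg1, securin, the inhibitor of separase, differed by -0.09 (95% confidence interval -0.34 to 0.16), with knockouts of 7.65, 7.43 and 7.72 and controls of 7.46 to 7.90. Its replicates 1 and 3 lay among the controls and replicate 2 just below them. In this group 4 of 7 genes fell, and 6 of 7 had no overlap between the groups, against 0.491% and 4.88% of all genes. The same shares of all genes apply to the counts by role below. Each role holds few genes, and differences between roles were not tested.

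**Figure D2:**
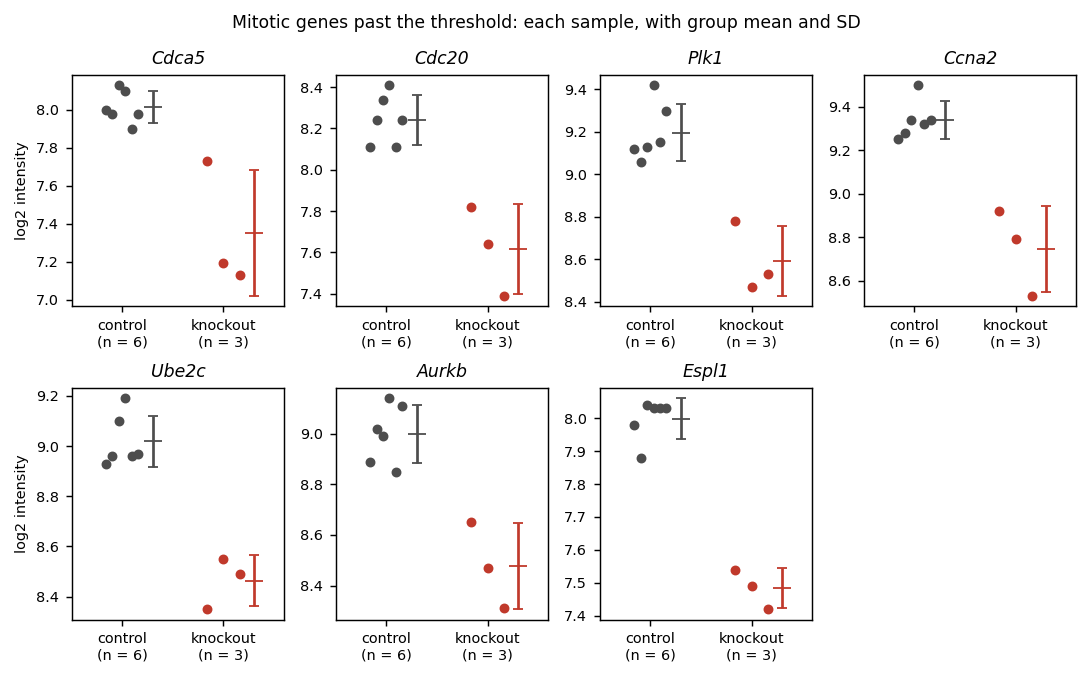
Log2 intensity (y axis, a separate scale per panel) of the 7 mitotic genes past the threshold in each control (grey, n = 6) and knockout sample (red, n = 3), with group mean and SD beside the points. No knockout point reaches a control point in any panel, and Espl1 and Ube2c have knockout SDs of 0.058 and 0.10.

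The promoters of the 4 mitotic genes with the smallest p among those with a sequence are shown. Each is the 150 bases before the start of transcription, from the RefSeq-derived table for GRCm38.p6, 5′ to 3′ on the gene's strand. Capitals mark the CCAAT box (CCAAT or its complement ATTGG), which binds NF-Y, and the cell cycle genes homology region or CHR (TTTGAA, its complement TTCAAA, or TTTAAA), which binds MuvB.
Espl1, chr15:102296143-102296292, plus strand: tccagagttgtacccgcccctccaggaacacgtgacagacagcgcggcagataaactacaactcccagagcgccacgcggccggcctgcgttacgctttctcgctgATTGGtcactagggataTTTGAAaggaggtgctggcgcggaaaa
Ube2c, chr2:164769779-164769928, plus strand: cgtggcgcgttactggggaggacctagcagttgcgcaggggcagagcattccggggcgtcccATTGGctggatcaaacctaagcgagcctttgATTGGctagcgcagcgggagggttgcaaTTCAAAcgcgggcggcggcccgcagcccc
Plk1, chr7:122159285-122159434, plus strand: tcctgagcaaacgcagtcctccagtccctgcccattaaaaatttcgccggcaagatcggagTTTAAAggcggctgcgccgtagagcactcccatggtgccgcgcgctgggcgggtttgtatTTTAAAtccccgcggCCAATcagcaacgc
Cdc20, chr4:118437344-118437493, minus strand: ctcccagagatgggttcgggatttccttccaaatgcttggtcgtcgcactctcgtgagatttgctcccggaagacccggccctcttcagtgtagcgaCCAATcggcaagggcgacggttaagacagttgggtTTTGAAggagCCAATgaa

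All 4 hold both elements close to the start. The CHR, as TTTGAA or its complement, begins 27 bases before it in Espl1, 29 in Ube2c and 18 in Cdc20. In Plk1 the form TTTAAA begins 29 and 89 bases before the start. TTTGAA begins 31 bases after the Plk1 start, beyond the bases shown. A CCAAT box begins 44 bases before the start in Espl1, 57 and 88 in Ube2c, 14 in Plk1 and 53 and 8 in Cdc20. The table held a window for 49 of the 59 genes, running from 250 bases before to 50 after the start, and both strands were searched. Of the 49, 35 held CCAAT (71.4%, against 41.1% of 27025 genes), 35 held TTTGAA (71.4% against 20.2%) and 10 held TTTAAA (20.4% against 14.9%). Both a CCAAT box and either form of the CHR were found in 31 (63.3% against 12.2%). TTTCCCGC and TTTGGCGC, forms of the site bound by E2F, were found in 1 (2.04% against 1.24% of all genes) and 2 (4.08% against 0.585%). The genes were listed for their role in mitosis, so these shares describe the list and not the effect of the knockout. Whether the elements have a part in the lower levels was not tested. TTGCNNAA, a form of the site bound by C/EBP factors, was found in 0 of 49 windows and in 12.2% of all genes, which says only that these letters are not in these windows. Other than a CCAAT box that shares bases with its own complement farther upstream of Ube2c, the matches in the shown genes did not overlap.

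Among the cyclins and kinases, 3 of 9 measured genes fell and all 9 means were lower. Ccna2, cyclin A2, read 9.25, 9.28, 9.34, 9.50, 9.32 and 9.34 in the controls and 8.92, 8.79 and 8.53 in the knockouts. It fell by 0.59 (SE 0.09, limma adjusted p = 0.017) and missed the threshold in 1 of the 9 smaller fits, that without knockout replicate 2 (adjusted p = 0.07). Plk1, the Polo kinase that acts from mitotic entry to cytokinesis, read 9.12, 9.06, 9.13, 9.42, 9.15 and 9.30 against 8.78, 8.47 and 8.53. The lowest control stood above the highest knockout, and Plk1 fell by 0.61 (SE 0.10, limma adjusted p = 0.024). Aurkb, the kinase of the chromosomal passenger complex, read 8.89, 9.02, 8.99, 9.14, 8.85 and 9.11 against 8.65, 8.47 and 8.31. Aurkb fell by 0.52 (SE 0.09, limma adjusted p = 0.031). Plk1 passed in 5 of the 9 smaller fits, and missed when control 5 or 6 or knockout 2 or 3 was left out (adjusted p up to 0.11). Aurkb passed in 2, those without control replicate 5 and without knockout replicate 1 (adjusted p otherwise up to 0.13).

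Cdk1, the kinase that both cyclins activate, had the largest difference of this group and did not pass. Its controls were 7.50, 7.49, 7.69, 7.92, 7.64 and 7.50 and its knockouts 7.26, 7.08 and 6.60, a difference of -0.64 (SE 0.14, limma adjusted p = 0.062). The groups were apart, but the 3 knockouts spanned more than the 6 controls. Aurka, the centrosomal Aurora kinase, differed by -0.49 (limma adjusted p = 0.11), with replicates 1 and 2 at 8.05 and 8.07 and replicate 3 at 7.51. The Cdk1-activating phosphatases Cdc25c and Cdc25b differed by -0.49 and -0.21, and Plk4, which starts centriole duplication, by -0.26. Cyclin B2 (Ccnb2) had the smallest difference of the group, -0.19 (95% confidence interval -0.51 to 0.14). Its knockout replicate 3 read 9.08, within controls of 8.64 to 9.22, while replicates 1 and 2 read 8.55 and 8.57, below them.

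Kinetochore and spindle checkpoint genes had a median difference of -0.51 and none of 15 passed, although 13 had an unadjusted limma p under 0.05 and 8 had no overlap between groups. The 4 subunits of the Ndc80 complex, which binds the microtubule, are an example. Spc24 read 8.66, 8.67, 8.74, 9.06, 8.61 and 8.63 in the controls and 8.43, 8.12 and 7.44 in the knockouts, a difference of -0.73 (SE 0.18, limma adjusted p = 0.089). Nuf2 read 8.65, 8.67, 8.83, 8.86, 8.76 and 8.71 against 8.44, 8.18 and 7.44, a difference of -0.72 (SE 0.17, limma adjusted p = 0.08). In both, each knockout lay below every control and the knockouts were spread over about a log2 unit (0.99 and 1.00). Ndc80 differed by -0.57 and Spc25 by -0.45. In Ndc80 replicate 1 equalled the control mean (8.89) while replicate 3 was 7.72.

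The checkpoint kinases Ttk and Bub1 differed by -0.52 (limma adjusted p = 0.057) and -0.68 (limma adjusted p = 0.14). Ttk read 7.64, 7.36, 7.41, 7.63, 7.52 and 7.60 against 7.26, 7.02 and 6.73, without overlap. Bub1 had the widest knockout range of the 57 genes, 1.19, with values of 8.06, 7.55 and 6.87. The checkpoint proteins Bub1b and Mad2l1 differed by -0.54 and -0.51. Cenph, of the inner kinetochore, had controls of 7.05 to 7.47 and knockouts of 7.0, 6.52 and 6.40, a difference of -0.59 (limma adjusted p = 0.069). The inner kinetochore genes Cenpn and Cenpk and the outer kinetochore genes Cenpe and Cenpf ranged from -0.24 (Cenpk) to -0.49. Bub3, which anchors Bub1 and Bub1b, differed by -0.15, with knockouts of 10.50, 10.38 and 10.49 just under controls of 10.53 to 10.70. Cenpa, the histone H3 variant that marks centromeres, was the only one of the 57 with a higher knockout mean, at 0.04 (95% confidence interval -0.14 to 0.22), and its knockouts of 8.49, 8.49 and 8.53 lay within controls of 8.27 to 8.65.

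The other subunits of the chromosomal passenger complex had lower knockout means without passing, and all 3 had no overlap between groups. Birc5, survivin, read 6.72, 6.72, 6.88, 7.07, 6.83 and 6.67 in the controls and 6.48, 6.15 and 5.72 in the knockouts, a difference of -0.70 (SE 0.14, limma adjusted p = 0.053). The knockout samples were spread over more than the controls. Cdca8, borealin, differed by -0.58 (limma adjusted p = 0.09) and Incenp, the scaffold of the complex, by -0.35 (limma adjusted p = 0.11).

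Kinesins and spindle assembly genes had all 10 differences between -0.67 and -0.46, a median of -0.52 and 0 past the threshold (10 of 10 at an unadjusted limma p under 0.05). Tpx2, which activates Aurka on the spindle, read 8.90, 8.85, 9.07, 9.09, 8.97 and 9.06 against 8.80, 8.33 and 8.21, a difference of -0.55 (SE 0.12, limma adjusted p = 0.058). Its replicate 1 lay 0.20 below the control mean and its replicates 2 and 3 lay 0.66 and 0.78 below. Kif15, a motor of spindle assembly, differed by -0.64 (limma adjusted p = 0.08) with knockouts of 7.98, 7.69 and 7.16 under controls of 8.10 to 8.41. Kif11, the motor that separates spindle poles, differed by -0.55 (limma adjusted p = 0.14), and replicate 1 at 9.16 lay within controls of 9.12 to 9.56. Hmmr, a spindle-associated hyaluronan-binding protein, differed by -0.67 with the largest standard error of the 57 genes, 0.22. The depolymerising kinesin Kif2c, the chromokinesins Kif22 and Kif4, the kinesins Kif18b and Kif20b and the microtubule-binding Nusap1 differed by -0.47, -0.47, -0.46, -0.47, -0.50 and -0.59.

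Cytokinesis genes had a median difference of -0.58 and 4 of 5 had no overlap between groups, with none past the threshold (5 of 5 at an unadjusted limma p under 0.05). Anln, the scaffold anillin of the contractile ring, read 7.68, 7.68, 7.81, 7.98, 7.83 and 7.82 in the controls and 7.48, 7.25 and 6.67 in the knockouts, a difference of -0.67 (SE 0.15, limma adjusted p = 0.063). Replicate 3 lay 1.13 below the control mean and replicate 1 lay 0.32 below. Kif23, a motor subunit of centralspindlin, had knockouts of 9.59, 9.61 and 9.30 under controls of 9.81 to 10.13 and differed by -0.44 (limma adjusted p = 0.073). The midzone bundler Prc1, the kinesin Kif20a and the RhoA activator Ect2 differed by -0.58, -0.61 and -0.42.

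Condensin and chromosome structure genes had a median difference of -0.47, and 1 of 6, the condensin subunit Ncaph (-0.50, limma adjusted p = 0.076), had no overlap between groups. Mki67, whose protein coats mitotic chromosomes and is the usual proliferation marker, read 10.90, 10.67, 10.84, 10.83, 11.07 and 10.91 in the controls and 10.81, 10.46 and 10.06 in the knockouts. Replicate 1 lay among the controls and replicates 2 and 3 below them, and the difference of -0.43 (SE 0.14, limma adjusted p = 0.19) did not pass. Top2a, the topoisomerase that untangles sister chromatids, read 9.99, 9.83, 9.91, 10.10, 10.00 and 10.01 against 9.85, 9.44 and 8.86. It had the same pattern with a larger difference, -0.59 (SE 0.17, limma adjusted p = 0.13). Both genes passed in the fit without knockout replicate 1, with adjusted p of 0.044 and 0.023, and without replicate 3 their adjusted p were 0.47 and 0.23. The condensin genes Ncapd2, Smc2 and Smc4 differed by -0.45, -0.52 and -0.17.

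The transcription factors of this program, Foxm1 and Mybl2, had a median difference of -0.29, and neither passed (both at an unadjusted limma p under 0.05). Foxm1 read 7.98, 8.0, 8.22, 8.20, 8.04 and 8.10 in the controls and 7.89, 7.84 and 7.63 in the knockouts, a difference of -0.30 (SE 0.08, limma adjusted p = 0.11). The groups did not overlap. Mybl2 differed by -0.28 (SE 0.10, limma adjusted p = 0.22), and by -0.10 on its second, dimmer probe, with replicate 1 at 8.25 among controls of 8.21 to 8.37.

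**Figure D3:**
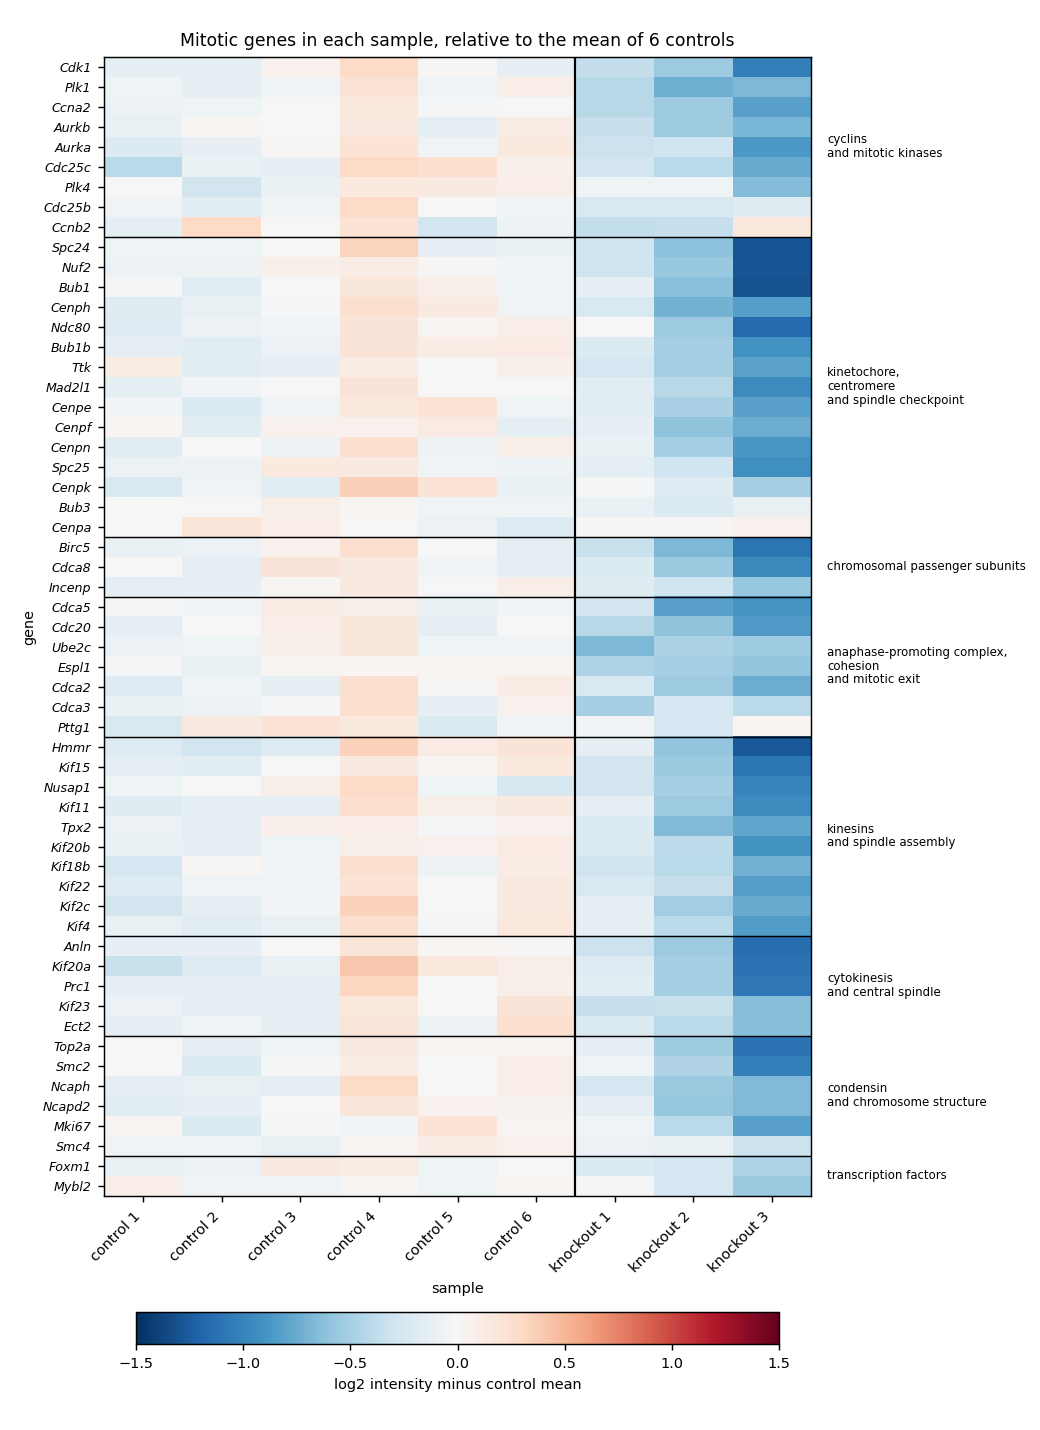
Each of the 57 mitotic genes (rows, by role) in each of the 9 samples (columns), coloured by log2 intensity minus the mean of the 6 controls, blue for lower and red for higher. Knockout 3 is the lowest of the 9 samples in 49 rows, and control 4 is the highest in 38.

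Most of the genes moved together from sample to sample, also within a group. Relative to the control mean, the median over the 57 genes was -0.20, -0.50 and -0.81 in knockout replicates 1 to 3. In the controls it was -0.11, -0.11, -0.03, 0.18, 0.00 and 0.05 in replicates 1 to 6. Knockout replicate 3 was the lowest of all 9 samples in 49 genes, and control replicate 4 the highest in 38. In 46 genes replicate 1 was the highest and replicate 3 the lowest knockout. Knockout replicate 1 stayed within the control range in 21 genes, replicate 2 in 4 and replicate 3 in 3. Over the 6 controls the median correlation of a pair of these genes was 0.60 (88.9% of pairs above 0), against 0.01 over all pairs of genes (51.1% above 0). That is a description over 6 arrays that each contribute all genes. By role it ran from 0.53 for kinetochore genes to 0.84 for cytokinesis genes, apart from the transcription factors, where Foxm1 and Mybl2 correlated at -0.211. The SD over the knockouts had a median of 0.318 for these genes and 0.108 for all genes, while the SD over the controls was 0.14 and 0.117.

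A few genes were level across the knockouts, chosen here after their values were seen. The range over the 3 knockouts had a median of 0.60. It was 0.12 in Espl1, 0.20 in Ube2c and 0.05 in Cdc25b, whose knockouts read 6.35, 6.36 and 6.40 under controls of 6.42 to 6.89. It was as narrow in genes that barely differed, at 0.05 in Cenpa (difference 0.04) and 0.12 in Bub3 (-0.15). Replicate 1 was the lowest of all 9 samples in 4 genes, among them Ube2c, Cdca3 and Ccnb2. With 3 knockout samples, whether a gene's pattern differs from that of the others was not tested.

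**Figure D4:**
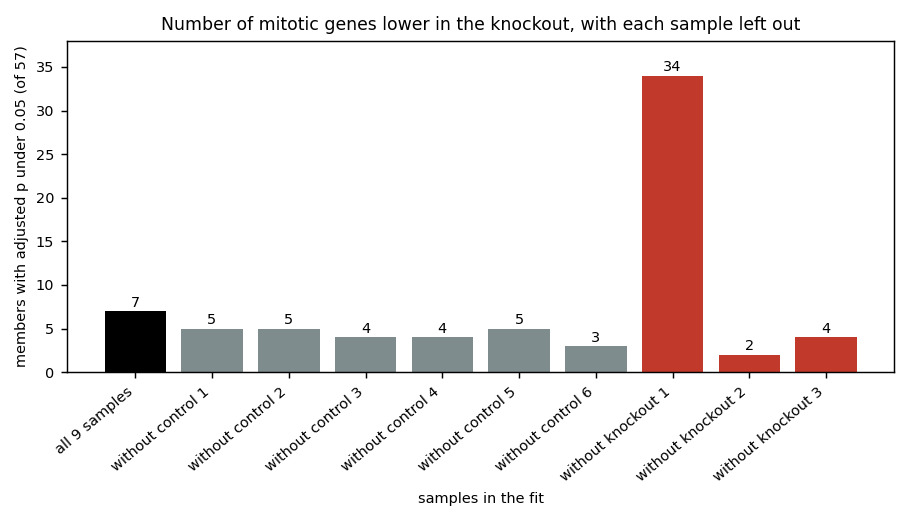
Number of the 57 mitotic genes with limma adjusted p under 0.05 (y axis, from 0), all of them lower in the knockout, in the fit of all 9 samples (black) and in fits without 1 control (grey) or 1 knockout (red). The count is 7 with all samples, between 3 and 5 without a control, and 34, 2 and 4 without knockouts 1, 2 and 3.

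Other genes of the cell cycle were compared through lists drawn from general knowledge, also with earlier results of these data known. Of 93 further mitotic genes measured, 7 fell and 0 rose (7.53% against the background of 0.491% lower), 91 had a lower knockout mean and the median difference was -0.33. Cenpm, of the inner kinetochore, read 7.97, 8.05, 8.11, 8.08, 7.87 and 7.92 in the controls and 7.56, 7.40 and 7.22 in the knockouts, and fell by 0.61 (SE 0.08, limma adjusted p = 0.012). The call was lost in 1 of the 9 smaller fits, without knockout replicate 2 (adjusted p = 0.064). The centrosomal kinase Nek2, the checkpoint ATPase Trip13 and the spindle protein Troap fell by 0.47, 0.47 and 0.43, and passed in 4, 3 and 1 of the 9 smaller fits. The list holds constitutive subunits as well, such as those of cohesin and the anaphase-promoting complex. Of 45 DNA replication genes, 9 fell and 0 rose, with a median of -0.52, where 0.491% of all genes fell. That is a larger share than the 7 of 57 (12.3%) on the main mitotic list, whose median was -0.50. In 30 of the 45 every knockout value lay below every control value (66.7%, against 61.4% of the 57 and 4.88% of all genes). The fall was thus not particular to mitotic genes, and differences between the lists were not tested. Pole2, a subunit of DNA polymerase epsilon, fell by 0.59 (limma adjusted p = 0.0095) and Timeless, of the replication fork protection complex, by 0.80 (limma adjusted p = 0.026). Pole2 passed in 8 of the 9 smaller fits (not without knockout replicate 2) and Timeless in 3, those without control replicate 2 and without knockout replicate 1 or 3 (adjusted p otherwise up to 0.098). The medians of the replication list were -0.25, -0.41 and -0.84 in knockout replicates 1 to 3. Of 34 regulators (E2F, pocket protein, MuvB, cyclin D and CDK inhibitor genes), 1 fell (2.94%) and 0 rose, with a median of -0.17. This was Cdk4, the cyclin D-dependent kinase, at -0.43 (limma adjusted p = 0.0497), and it passed in 0 of the 9 smaller fits (adjusted p up to 0.14). Its partner Ccnd1 differed by -0.34 (limma adjusted p = 0.052).

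Markers of other cell types also differed between these samples. The 8 red pulp macrophage markers all had higher knockout means with 0 past the threshold. Their mean log2 level was 8.64 to 9.81 in the controls and 9.48, 10.0 and 9.95 in knockout replicates 1 to 3, and their median relative to the control mean was 0.27, 0.77 and 0.76. The 8 B cell markers had a mean level of 7.57 to 7.79 in the controls and 7.90, 7.50 and 8.66 in the knockouts, with all 8 above every control in replicate 3. Of 6 plasma cell markers 2 rose, as did 0.415% of all genes. These were Jchain (1.89, limma adjusted p = 0.046) and Prdm1 (0.56, limma adjusted p = 0.0059). Xbp1, Sdc1, Tnfrsf17 and Mzb1 differed by 0.04, 0.07, 0.27 and 0.54 without passing. Mzb1 read 6.37, 6.10 and 7.43 in the knockouts and 5.87 to 6.34 in the controls. The list's mean level was 6.71 to 7.05 in the controls and 7.32 to 7.48 in the knockouts. Prdm1 passed in all 9 smaller fits and Jchain in 2, those without control replicate 3 and without knockout replicate 1 (adjusted p otherwise up to 0.17). The 4 monocyte markers had a mean level of 7.63 to 8.03 in the controls and 7.95 to 8.23 in the knockouts. The 5 plasmacytoid DC markers were at 8.01 to 8.42 in the controls and 8.18, 8.18 and 8.67 in the knockouts. The 4 germinal centre B cell markers were at 8.54 to 8.71 and 8.50 to 8.76, and the 6 T cell markers at 6.45 to 6.63 and 6.39 to 6.68. Bright genes weigh most in both means, so neither mean can be assigned to its cell type alone. Gcsam and Bcl6 read 10.22 to 10.66 and 10.27 to 10.52 in the controls. Cd4 read 11.10 to 11.72 in the controls and 11.62, 11.20 and 10.70 in the knockouts, while Cd3e read 5.37 to 5.49 and 5.40 to 5.41. The 5 NK cell markers were at 4.77 to 5.0 and 4.77 to 4.94, and the 6 neutrophil markers at 4.61 to 4.73 and 4.73 to 4.88. In these lists, apart from the plasma cell one, 0 genes passed.

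The sample lowest in mitotic transcripts, knockout replicate 3, was also the highest in B cell markers. In knockout replicate 2 none of the 8 B cell markers lay above every control, 3 lay below, and the mitotic median was -0.50. Control replicate 2 had red pulp macrophage markers 0.53 above the control mean, more than knockout replicate 1 at 0.27, with a mitotic median of -0.11 against -0.20. Their part in the result was not tested. The 5 markers of DC precursors and progenitors had a mean level of 8.43 to 8.61 in the controls and 8.46 to 8.56 in the knockouts, and knockouts 1 to 3 had list medians of -0.03, -0.11 and -0.20 against the average control. Kit, the stem cell factor receptor, read 11.47, 11.22 and 11.06 in the knockouts and 11.27 to 11.45 in the controls, a difference of -0.08 (95% confidence interval -0.27 to 0.10). Its replicates 2 and 3 lay below every control and replicate 1 above, and without replicate 3 the difference was 0.01. Kit was about as bright as the DC marker Flt3, at 11.39 to 11.61 in the controls, so its level cannot be assigned to precursors. Of the other markers in this list Cd34 and Zbtb46 differed by -0.23 and -0.13 and Cx3cr1 by 0.03. Ly6c2 went the other way, at 8.14, 8.58 and 8.95 in the knockouts against controls of 7.82 to 8.73, a difference of 0.39 (95% confidence interval -0.10 to 0.88). Zbtb46 is also on the DC list and Ly6c2 on the monocyte list, so this list does not measure precursors alone. The part of these genes in the result was not tested. The 3 erythroblast markers measured had a mean level of 6.47 to 6.62 and 6.37 to 6.48. Of these Tfrc, the transferrin receptor of many dividing cells, differed by -0.38 (limma adjusted p = 0.095). The values used hold no background measure, so no marker can be called absent.

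**Figure D5:**
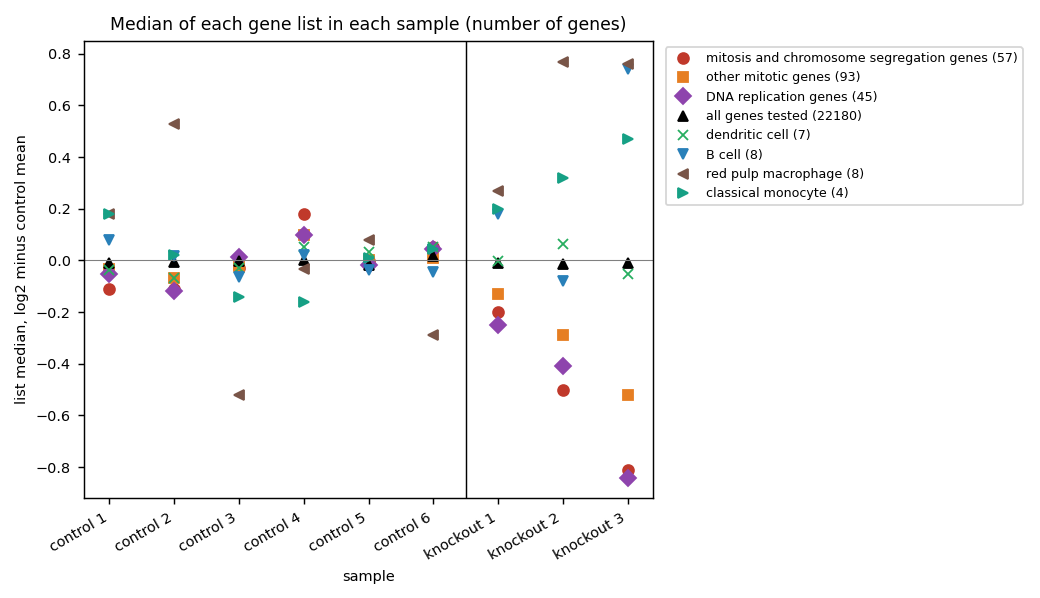
Median of each gene list (y axis, log2 intensity minus control mean) in each of the 9 samples (x axis), with the number of genes measured in brackets. Mitotic genes lie at -0.20, -0.50 and -0.81 in the knockouts, red pulp macrophage markers at 0.27, 0.77 and 0.76, and DC markers near 0 throughout.

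Cebpb lies on chromosome 2, and so do 10 of the measured mitotic genes by the RefSeq gene order. Nearest are Aurka, with 20 protein-coding genes between it and Cebpb, and Ube2c, with 46. Ube2c is separated by 11 protein-coding genes from Mmp9, which also fell. Of 39 genes tested between Ube2c and Cebpb, 1 fell (Mmp9) and 1 rose (Sulf2), and their median difference was -0.04. The other 9 genes on this chromosome, of which none passed, differed by between -0.68 (Bub1) and -0.21 (Cdc25b).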

How the data were processed

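Each deposited value is a probe's log2 intensity. RMA is named as the tool per the submitters' processing notes. RMA subtracts background, quantile-normalizes and summarises, so a shift of most genes would be removed and changes of dim probes are compressed. The sources used here give neither its version nor a genome build. Of 41801 rows, 7329 had no value and 4 lacked 1, and of the 34468 probes left 23521 had 1 symbol, 1814 several and 9133 none in the platform annotation. The brightest probe stood for each of 22180 genes. Knockout (n = 3) and control (n = 6) were compared with limma 3.58.1 in R 4.3.3 (lmFit, eBayes, two-sided, no covariate), adjusted over all genes at 0.05, after a test on simulated data. The number of arrays limits the precision. The members and lists were chosen with earlier results of these data known. Named outside the member list were Cebpb and the brightest markers. The 4 further mitotic genes and 2 replication and 2 regulator genes with the smallest p were also named. Prdm1, Sdc1, Tnfrsf17, Mzb1, Irf4, Flt3, Cd3e, Cd34, Cx3cr1, Mmp9 and Sulf2 were named after their values were seen. Alternatives were other normalizations, fits, filters, probe rules, control subsets and leaving out each sample. Python 3.11.15 made tables and figures.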

Additional observations from a re-analysis of the deposited data

Results flagged for a closer look

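In 3 of the 91 sets of control values examined, 1 sample stood apart from the other 5, by a gap above 0.625 of the range; chance gives about 1 in 20. Control replicate 4 was that sample each time. It read 9.50 for Ccna2, above 9.34 in the next control, and 9.06 for Spc24, above 8.74. It read 8.41 for the marker Tcf4, below 8.52. Without this sample the log2 difference of Ccna2 was -0.56 (limma adjusted p = 0.043) and that of Spc24 was -0.67 (limma adjusted p = 0.17).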

How the results depend on the processing

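The count of 7 mitotic genes past 0.05 ranged from 2 to 34 with 1 sample left out, and that of all genes (201) from 33 to 332. The 2 counts were 14 and 267 after a further quantile normalization, and 23 and 652 with array weights. They were 27 and 537 above the median gene, out of 56 mitotic genes and 11090 genes in all. They were 0 and 3 against controls 1 to 3, and 1 and 20 against controls 4 to 6. The replicate block fits a term for each replicate number. Controls 4 to 6 share their numbers with no knockout, so in that fit they add nothing to the difference. The median difference of the mitotic genes was -0.41 there, as against controls 1 to 3. With the replicate block the 2 counts were 0 and 2 (34 and 1995 at an unadjusted limma p under 0.05). Deviations of same-numbered samples correlated at -0.143 to 0.047 in 3 pairs, and those of other pairs at -0.23 to 0.197. With 3 pairs, whether same-numbered samples share a batch cannot be told. The causes were not tested. Array centring (7), trend and robust fitting (8), the mean of probes (7), all probes (7) and a minimum of 1.2-fold (7) left the first count within 1.5 times. The median difference ranged from -0.64 to -0.35 with 1 sample left out, and at least 55 of 56 genes kept a lower mean in all these settings. Cebpb passed in all 9 smaller fits. No gene named by rule changed sign in a setting where it passed or from a difference that passed. Cenpa, with a higher mean in the comparison of all samples, had a lower one with the replicate block and against controls 1 to 3, where 57 of 57 means were lower, and some small marker differences, such as that of Kit, also changed sign.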
